A study of Ciona robusta with 6 samples.

Results

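The heart of the tunicate Ciona robusta lies between a pair of blood sinuses, and the 2 libraries of the pharyngeal blood sinus (PS) were compared here with the 2 libraries of the stomach blood sinus (SS), that is, 4 of the 6 libraries of the series. All 793 genes of the deposited table entered the comparison, with no selection on their values. The other 2 libraries were made from the central cardiac tube (C) and are given beside the sinuses. The animals were adult and wild caught, with no treatment and no genetic change in any group. Each library was bulk RNA from pooled pieces of several hearts, pericardial cells had been removed, and every sinus piece kept a little of the neighbouring muscle of the tube. Sources do not say whether the 2 pools of a group came from separate animals, so the p-values measure only the spread between these libraries, which may be technical.

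The tunicate heart is a single muscular tube that periodically reverses the direction in which it pumps. Blood therefore leaves through the pharyngeal end for a while and then through the stomach end, and neither sinus is a fixed inflow or outflow vessel. The pharyngeal sinus runs below the endostyle, a mucus-secreting groove of the pharynx that is related to the vertebrate thyroid, and the stomach sinus lies beside the stomach. The study asked whether the 2 ends are molecularly alike.

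Levels were given as FPKM, that is, reads scaled by the authors for gene length and library size, and were compared as log2(FPKM + 1), on which 1 unit is close to a 2-fold change for all but low genes. On this scale most genes were at nearly the same level in both sinuses. Of the 695 genes with a mean of at least 10 FPKM over the 4 sinus libraries, 589 (84.7%) were close to equal, meaning that the 90% interval of the difference, PS minus SS, lay within -1 to 1. The test of limma, with Benjamini-Hochberg adjustment over all 793 genes, called 10 genes different (1.26%), 6 higher in PS (0.757%) and 4 lower in PS (0.504%). Because the tissue was bulk RNA, a lower share of a cell type and less RNA per cell cannot be told apart in any of these values. The count of calls depended on single libraries. It was 58 without PS replicate 1, 36 without PS replicate 2, 1 without SS replicate 1 (LOC100176946, which is not among the 10) and 0 without SS replicate 2, and it was also 0 without either cardiac tube library, which enter the comparison only through the shared estimate of spread. In the 3 fits of limma with 0 calls, 100 (without C replicate 1), 102 (without C replicate 2) and 90 (without SS replicate 2) genes had an unadjusted p under 0.05, against 118 (14.9%) with all libraries. Without a PS library, the lone library of that group is assumed to vary like the other groups, so that the PS spread no longer counts against a gene. The direction of all 10 called genes was kept in each of these 6 fits. This outcome was fixed in advance, since the sinus libraries of these genes did not overlap.

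**Figure D1:**
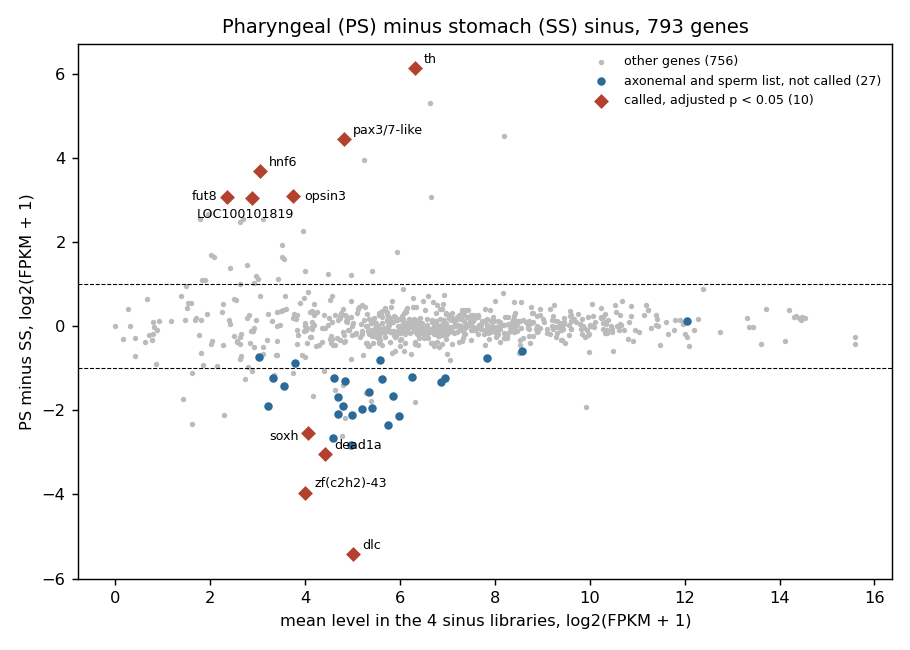
Difference between the sinuses (PS minus SS, vertical axis, log2(FPKM + 1)) against the mean level over the 4 sinus libraries (horizontal axis, same scale) for 793 genes, with dashed lines at -1 and 1. The 10 called genes (diamonds) and most genes of the axonemal and sperm list (large dots) lie outside the band in which nearly all genes of high level fall.

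The genes higher in PS were led by th, which encodes tyrosine hydroxylase, the rate-limiting enzyme of catecholamine synthesis. Its levels were 222 and 88.2 FPKM in PS, against 1.20 and 0.838 FPKM in SS, and 0.423 and 1.60 FPKM in C. The opsin gene opsin3, of the family of light-sensitive receptors, had 29.2 and 16.96 FPKM in PS, against 1.47 and 2.05 FPKM in SS and 2.59 and 3.43 FPKM in C. For both genes the PS libraries stood far above the other 4, which were near the bottom of the scale. The differences were 6.13 ± 0.57 (SE) for th and 3.09 ± 0.43 (SE) for opsin3, with limma adjusted p of 0.0107 and 0.0337.

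Of the transcription factors, a paired-box gene and a onecut gene were higher in PS. The paired-box gene pax3/7-like had 66.3 and 40.4 FPKM in PS, against 1.60 and 1.26 FPKM in SS and 1.27 and 2.002 FPKM in C. The onecut gene hnf6, whose vertebrate counterpart acts in liver and pancreas, had 15.2 and 13.7 FPKM in PS, against 0.188 and 0.198 FPKM in SS, and was listed at 0 in both C libraries. Neither gene had overlapping sinus libraries, and in both the SS libraries differed from the C libraries by under 1 FPKM. The differences were 4.44 ± 0.42 (SE) for pax3/7-like, with a limma adjusted p of 0.0107, and 3.69 ± 0.40 (SE) for hnf6, with 0.0181.

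The remaining genes called higher in PS were fut8, which encodes the enzyme that adds the core fucose to N-linked glycans, and LOC100101819, which the table does not describe. The gene fut8 had 9.55 and 6.69 FPKM in PS, against 0 and 0.131 FPKM in SS, and LOC100101819 had 12.8 and 11.6 FPKM in PS, against 0.786 and 0.412 FPKM in SS. Both were low even in PS, and both were under 1 FPKM in the SS libraries. The differences were 3.08 ± 0.43 (SE) and 3.05 ± 0.42 (SE), each with a limma adjusted p of 0.0337.

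The 4 genes called lower in PS were dlc, zf(c2h2)-43, dead1a and soxh. The gene dlc, read from its symbol as a dynein light chain, had 0 and 1.13 FPKM in PS, against 62.6 and 61.1 FPKM in SS and 5.71 and 4.32 FPKM in C. The zinc finger gene zf(c2h2)-43 had 1.14 and 0.571 FPKM in PS, against 19.0 and 39.3 FPKM in SS, and was listed at 0 in both C libraries. In both genes SS stood apart from the other parts of the heart. The gene dead1a had 4.03 and 3.09 FPKM in PS, against 29.0 and 45.3 FPKM in SS, and soxh, of the HMG-box family, had 4.70 and 3.14 FPKM in PS, against 23.2 and 31.9 FPKM in SS. The differences ran from -2.54 ± 0.38 (SE) for soxh to -5.43 ± 0.46 (SE) for dlc, with limma adjusted p between 0.0107 (dlc) and 0.0457 (soxh).

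**Figure D2:**
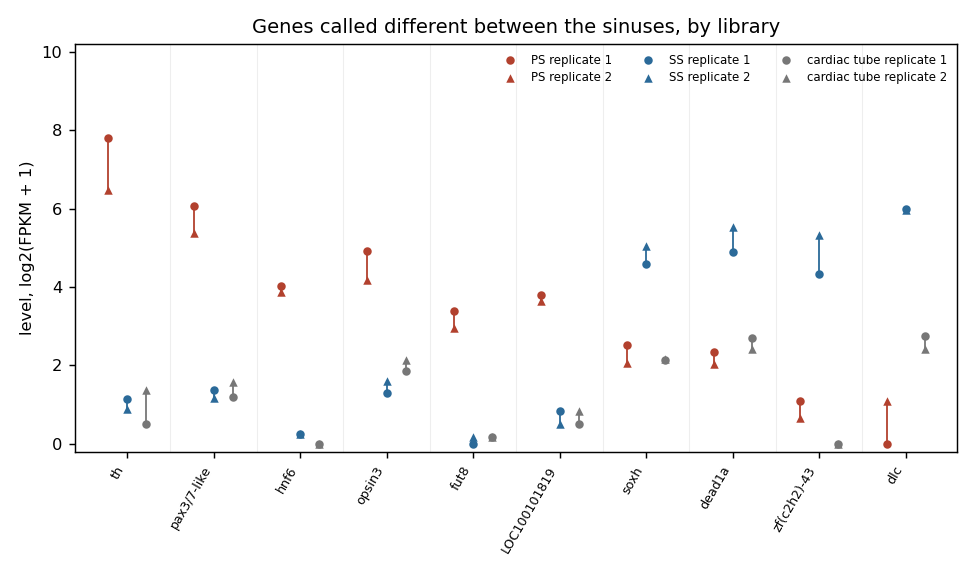
Levels of the 10 called genes in each library (vertical axis, log2(FPKM + 1)), with PS at the left, SS in the middle and the cardiac tube at the right of each column, replicate 1 as circles, replicate 2 as triangles and a line joining the replicates. The PS libraries of the first 6 genes and the SS libraries of the last 4 stand above both other groups.

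The cardiac tube was nearer to the low sinus in every called gene, with both C libraries above both PS libraries in dlc. Its mean was nearer to SS in 6 of the 6 genes higher in PS and nearer to PS in 4 of the 4 genes lower in PS. The same held for most of a wider set of 58 genes whose sinus libraries did not overlap, whose difference exceeded 1 and whose mean reached 10 FPKM in at least 1 sinus. C was nearer to SS in 19 of the 21 genes of that set that were higher in PS, and nearer to PS in 34 of the 37 that were lower in PS. Its mean lay below both sinuses in 12 of those 21 and in 16 of those 37 genes, and above both in 1 and in 0. The exception above both sinuses was cinut, with 18.3 and 15.1 FPKM in PS, against 4.99 and 4.58 FPKM in SS and 19.2 and 23.1 FPKM in C. Here the SS libraries stood alone at the low end, and limma gave an adjusted p of 0.0888, which did not pass. Since the set was chosen by its sinus values, these counts describe where C lay and are not a test.

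The 12 largest differences toward PS that did not pass the test included receptors and peptides of the nervous and endocrine systems. The receptor ci-gnrhr4, which binds gonadotropin-releasing hormone, had 108 and 80.2 FPKM in PS, against 23.0 and 31.0 FPKM in SS (1.76 ± 0.29, SE, limma adjusted p = 0.0599). The tachykinin receptor tkr had 20.1 and 7.64 FPKM in PS, against 0.766 and 2.01 FPKM in SS, and ci-galp, a galanin-like peptide, had 18.9 and 24.6 FPKM in PS, against 8.51 and 7.81 FPKM in SS. In each the sinus libraries were separate, and the PS replicates of tkr spread more widely than those of ci-galp. The proneural factor neurogenin had 13.4 and 16.4 FPKM in PS, against 10.3 and 1.29 FPKM in SS, so that 1 SS library came close to PS. The homeobox gene tlx had 58.6 and 60.3 FPKM in PS, against 24.6 and 21.7 FPKM in SS, the tightest replicates of the 12 in PS (1.32 ± 0.23, SE, limma adjusted p = 0.0728).

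The largest differences of all among genes not called came with wide spread between the PS libraries. The gene hdcl had 340 and 46.2 FPKM in PS, against 0.815 and 4.70 FPKM in SS. Its difference, 5.30 ± 1.01 (SE), was the second largest toward PS after that of th, and its limma adjusted p was 0.0795. Of genes that the table lists without a description, LOC100135651 had 36.4 and 103 FPKM in PS, against 5.50 and 1.52 FPKM in SS, and LOC474364 had 110 and 246 FPKM in PS, against 10.7 and 32.6 FPKM in SS. In all 3 the libraries of the sinuses did not overlap, and the PS libraries differed from each other by more than 2-fold. LOC778534 and LOC100179079, with differences of 2.26 and 1.93, also had PS libraries more than 2-fold apart. PS replicate 1 was the higher library in both and in hdcl, and PS replicate 2 in LOC100135651 and LOC474364. Of the 12 genes, 5 passed the limma test without PS replicate 1, and these 5 were among the 8 that passed without PS replicate 2, in fits that leave the spread between the PS libraries out. With all libraries, 5 passed with no factor term and 4 on the adjusted scores.

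The 12 largest differences toward SS that did not pass were mostly genes of the axoneme, the microtubule core of cilia and sperm tails. The list of axonemal and sperm genes had 28 members, of which 25 reached a mean of 10 FPKM in the sinuses. Sinus libraries did not overlap in 408 (51.5%) of all genes, PS being higher in 26.6% and lower in 24.8%. In the list PS was lower without overlap in 25 of the 28 members and higher without overlap in 0. The median difference of the list was -1.48, beside -0.0007 over all genes. Only dlc was called, where 0.504% of all genes were called lower in PS. In that direction 22 members had an unadjusted limma p under 0.05, where 7.19% of all genes did and 7.69% did in the other direction. Sperm and ciliated cells cannot be told apart by this list, since axonemes are built from shared parts.

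Dyneins and radial spoke proteins drive and regulate the beat of an axoneme. The axonemal dynein light chain gene dnal1 had 8.65 and 4.34 FPKM in PS, against 31.7 and 77.2 FPKM in SS and 4.37 and 3.44 FPKM in C. The radial spoke gene ci-rsp9 had 20.4 and 9.92 FPKM in PS, against 43.3 and 136 FPKM in SS, and ci-rsp4/6 had 25.1 and 15.2 FPKM in PS, against 49.9 and 156 FPKM in SS. In all 3 both SS libraries were above both PS libraries, and SS replicate 2 was more than 2-fold above SS replicate 1. The tektin tektinA1, a filament protein of doublet microtubules, had 23.7 and 5.52 FPKM in PS, against 27.5 and 86.4 FPKM in SS, so that PS replicate 1 and SS replicate 1 were nearly level. The ciliary gene efhc2 had 9.66 and 2.21 FPKM in PS, against 21.9 and 58.3 FPKM in SS. The difference was -2.82 ± 0.55 (SE) for dnal1, with a limma adjusted p of 0.0795, and -2.65 ± 0.72 (SE) for efhc2, with 0.187. Other dynein and radial spoke members differed less, such as ic5 (-0.81) and rsp3 (-1.20).

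The size of the difference in this list varied with the library. The median level of the 28 genes was 19.2 and 9.70 FPKM in PS, 29.6 and 75.4 FPKM in SS, and 17.6 and 15.8 FPKM in C. SS replicate 2 was above SS replicate 1 in 27 of the 28 genes, and PS replicate 1 was above PS replicate 2 in 26. The replicates of each sinus thus differed in 1 direction across nearly the whole list, and C was nearer to PS in 26 of the 28. Without SS replicate 2 the median difference was -0.88, and without SS replicate 1 it was -2.20. It was -1.95 without PS replicate 1, where 21 members passed the limma test, and -1.07 without PS replicate 2, where 6 passed. In limma fits without SS replicate 1 and without SS replicate 2 no member passed, dlc included, and 24 and 8 members had an unadjusted p under 0.05. No member passed without C replicate 1 or without C replicate 2 either, with 10 and 11 at an unadjusted p under 0.05. Members whose sinus libraries overlapped were dynll6, dynlt1 and ci-ak58. The cytoplasmic-type light chain dynll6 had 4447 and 4392 FPKM in PS, against 3516 and 4665 FPKM in SS, and was the only member close to equal.

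**Figure D3:**
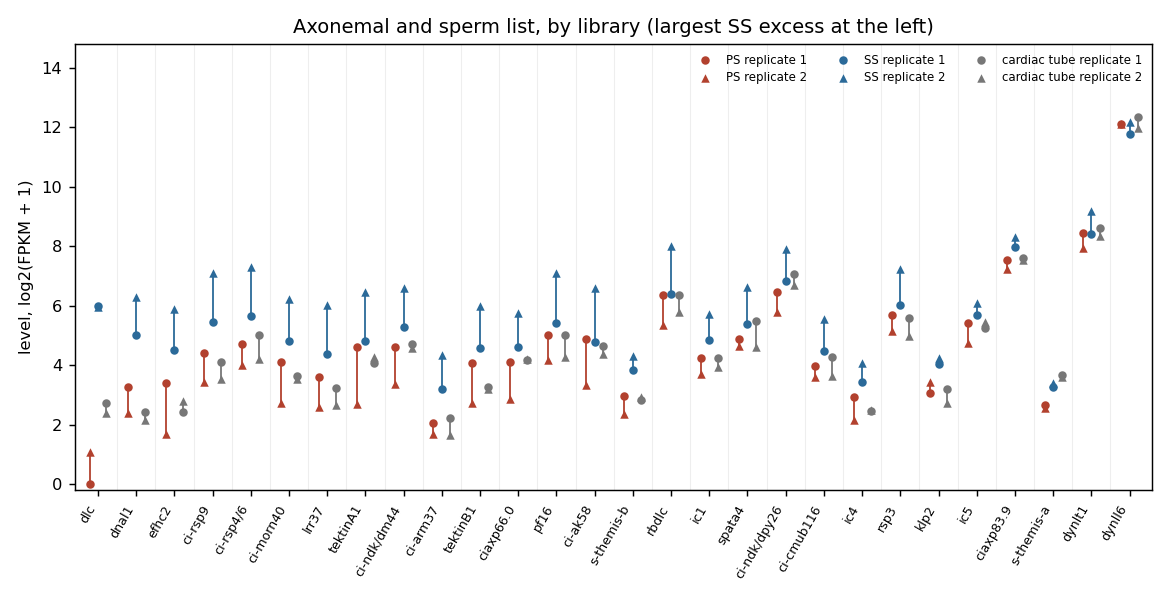
Levels of the 28 genes of the axonemal and sperm list in each library (vertical axis, log2(FPKM + 1)), with PS at the left, SS in the middle and the cardiac tube at the right of each column, replicate 1 as circles and replicate 2 as triangles. SS lies above PS in nearly every column, and SS replicate 2 is above SS replicate 1 in 27 of 28.

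Genes of the organs next to each sinus gave mixed values. The gene listed as endostyle-specific had 128 and 1010 FPKM in PS, against 21.5 and 9.94 FPKM in SS and 27.8 and 9.21 FPKM in C. The PS libraries were both above the rest but differed from each other several fold (4.53 ± 1.02, SE, limma adjusted p = 0.119). Without PS replicate 1 the difference was 6.01 and without PS replicate 2 it was 3.04. The gene passed in both fits, which hold 1 PS library each and leave out the spread between the PS libraries, so they add no support. The signalling gene tgfbeta2 had 129 and 125 FPKM in PS, against 79.0 and 101 FPKM in SS, a difference of 0.50 with a 90% interval of 0.10 to 0.91. Over the 11 endostyle and pharynx genes the median difference was 0.55, and 10 were positive. Of the 11, 8 had separate libraries with PS higher (26.6% of all genes did). Only pax3/7-like was called (0.757% of all genes were, with PS higher). The list took pax genes by symbol alone, so a role of pax3/7-like in the pharynx is not shown. Its other pax members, pax1/9, pax2/5/8-b and pax258, were close to equal. The study named endostyle-specific and tgfbeta2 for PS from these samples, so the lean of this list toward PS is not independent evidence.

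On the stomach side, gh18, a glycosyl hydrolase of the chitinase family, had 11.8 and 5.91 FPKM in PS, against 25.9 and 67.3 FPKM in SS. The cardiac tube was not low here, at 32.2 and 23.6 FPKM, so that PS was the part that stood apart (-2.19 ± 0.55, SE, limma adjusted p = 0.152). The difference of gh18 was -2.63 without PS replicate 1 and -1.74 without PS replicate 2, and it passed in both fits, which likewise hold 1 PS library and add no support. The other stomach gene of the study, ciap, had 101 and 128 FPKM in PS, against 130 and 133 FPKM in SS, and was close to equal. The nuclear receptor hnf4, known from liver and gut in vertebrates, had 188 and 179 FPKM in PS, against 184 and 186 FPKM in SS, and 192 and 196 FPKM in C, and was nearly level in all 6 libraries. Of the 6 stomach and digestive tract genes only hnf6 was called, and it was higher in PS, where 0.757% of all genes were called in that direction.

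Of the 8 genes in the list of sinus genes, 6 were close to equal and none was called. Among all genes of at least 10 FPKM 84.7% were close to equal, and 1.26% of all genes were called. The list holds genes that the study chose on these samples, so its values are not independent evidence, and also fli/erg4 and ets/pointed2, which share a family name with them. Both had a C mean above both sinus means, at 121 FPKM in fli/erg4 and 136 FPKM in ets/pointed2, though the libraries of ets/pointed2 overlapped. Without fli/erg4 and ets/pointed2, 4 of 6 were close to equal. The Hox gene hox3 had 1048 and 874 FPKM in PS, against 879 and 831 FPKM in SS, with overlapping libraries and a 90% interval from -0.13 to 0.45. The LIM homeobox gene isl had 133 and 127 FPKM in PS, against 115 and 171 FPKM in SS, with an interval from -0.62 to 0.39. The ETS-family genes fli/erg1 (80.4 and 72.2 FPKM in PS, against 68.4 and 66.1 FPKM in SS) and ets/pointed1 (26.8 and 28.7 FPKM in PS, against 24.7 and 21.7 FPKM in SS) had slightly higher PS libraries that did not overlap with SS, yet their intervals held 0. The ParaHox gene ipf1 could not be called equal or different. It had 123 and 28.5 FPKM in PS, against 78.5 and 50.7 FPKM in SS, and its interval ran from -1.57 to 1.40. The homeobox gene six12 was also unsettled, with 22.6 and 11.4 FPKM in PS, against 11.9 and 9.53 FPKM in SS, and an interval from -0.34 to 1.45.

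The Hox genes hox4 and hox5 were close to equal with higher PS libraries. The gene hox4 had 673 and 749 FPKM in PS, against 438 and 569 FPKM in SS, and hox5 had 411 and 483 FPKM in PS, against 333 and 268 FPKM in SS. Their sinus libraries were separate, and the differences were 0.51 ± 0.21 (SE) and 0.57 ± 0.15 (SE), with limma adjusted p of 0.334 and 0.182. The homeobox gene evx-a lay the other way, with 11.2 and 12.9 FPKM in PS, against 18.0 and 38.2 FPKM in SS. It was under both sinuses in C, with 7.30 and 3.07 FPKM.

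Heart muscle genes were mostly close to equal at the 2 ends, like most genes of their level. Of the 21 cardiac and muscle genes 20 reached 10 FPKM and 18 were close to equal, beside 84.7% of all genes of at least 10 FPKM. None was called, beside 1.26% of all genes. The median difference of the list was -0.13. The homeobox gene nk4, counterpart of the vertebrate cardiac factor Nkx2-5, had 369 and 320 FPKM in PS, against 398 and 445 FPKM in SS and 611 and 616 FPKM in C. The muscle methyltransferase gene smyd1 had 336 and 314 FPKM in PS, against 437 and 382 FPKM in SS and 489 and 574 FPKM in C. Both showed PS lowest, SS in the middle and C highest with no overlap between neighbours. This order held for 6 of the 21 genes (28.6%), where it held for 5.30% of all genes, the others being tropm1, if-a, hand and tensin. The opposite order of the sinuses below C, with SS lowest, held for 4 of the 21 (19.0%), among them irx-b and ephrinb, where 4.79% of all genes had it. In irx-b, an Iroquois homeobox gene, the levels were 188 and 190 FPKM in PS, against 166 and 168 FPKM in SS and 306 and 298 FPKM in C. The study named tropomyosin, nk4, irx-b and ephrinb, among others, for the cardiac tube from these samples. The share of this list with C highest is therefore not independent evidence. How much of the tube's muscle each sinus piece carried was not measured, and its part in these orders was not tested.

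The intermediate filament gene if-a was the most abundant of the close-to-equal genes. It had 45180 and 39726 FPKM in PS, against 56125 and 57531 FPKM in SS and 110117 and 118307 FPKM in C. Its libraries were separate and its difference, -0.42 ± 0.27 (SE), had an interval from -0.94 to 0.09, just inside the margin. In the 4 fits without either C library or without either PS library the interval of if-a went beyond the margin, so it no longer counted as close to equal. The same held in the fit of the 4 sinus libraries with the factor term. The sum over the 4 cardiac muscle markers, most of it if-a, was 52230 and 47110 FPKM in PS, against 64030 and 65710 FPKM in SS and 120300 and 127700 FPKM in C.

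The nuclear receptor gene err and the enzyme gene ache had the same order and came nearer to the threshold. The gene err, whose vertebrate counterparts govern mitochondrial energy metabolism, had 270 and 297 FPKM in PS, against 459 and 423 FPKM in SS and 664 and 651 FPKM in C. The acetylcholinesterase gene ache had 802 and 798 FPKM in PS, against 1303 and 1130 FPKM in SS and 1819 and 2039 FPKM in C. In both the 3 parts did not overlap, and C was more than 2-fold above PS. Yet the differences between the sinuses, -0.64 ± 0.12 (SE) and -0.60 ± 0.12 (SE), lay within the margin, and limma gave adjusted p of 0.0784 and 0.0934.

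**Figure D4:**
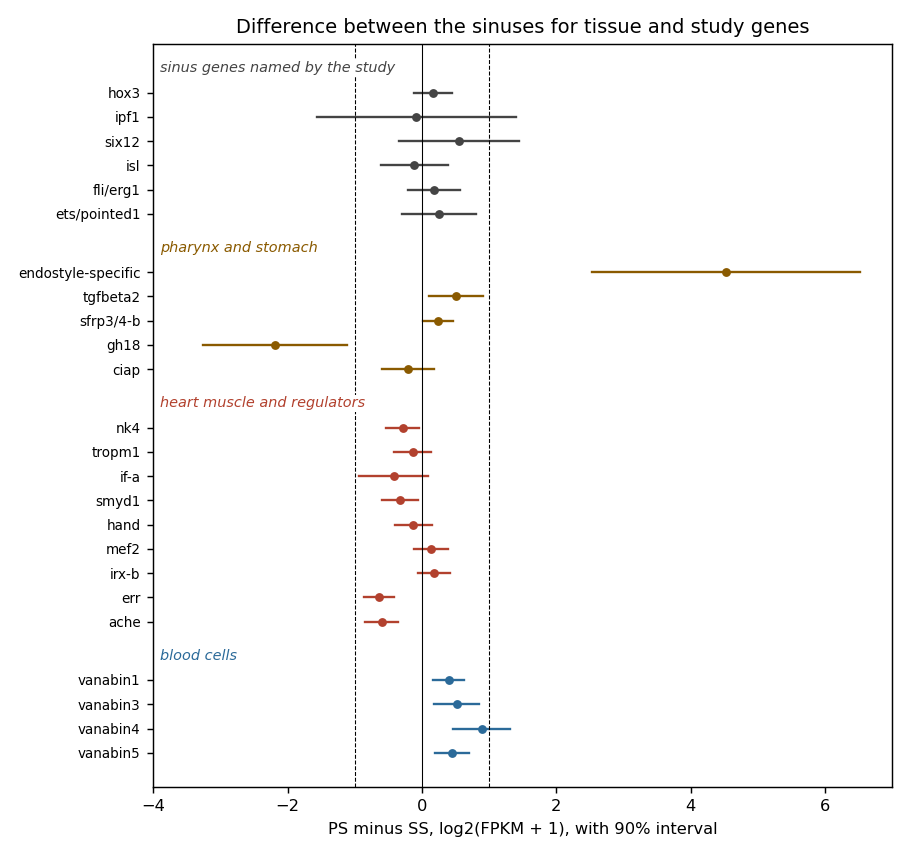
Difference between the sinuses (PS minus SS, horizontal axis, log2(FPKM + 1)) with its 90% interval for the genes named by the study, genes of the pharynx and stomach, heart muscle genes with their regulators, and vanabins. Dashed lines mark -1 and 1. Intervals of the muscle genes stay inside the lines, those of endostyle-specific and gh18 lie outside on opposite sides, and that of ipf1 crosses both lines.

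Of the blood cell genes the vanabins had higher PS libraries, and none passed the test. Vanabins are vanadium-binding proteins of ascidian blood cells. All 4 listed ones had separate libraries with PS higher, beside 26.6% of all genes, and vanabin1, vanabin3 and vanabin5 were close to equal. The gene vanabin4 had 7778 and 6133 FPKM in PS, against 3138 and 4427 FPKM in SS and 6091 and 5437 FPKM in C. The gene vanabin1 had 2838 and 2582 FPKM in PS, against 1951 and 2172 FPKM in SS and 2115 and 2057 FPKM in C. SS was thus the low part for vanabin4, whereas PS was the high part for vanabin1. The differences ran from 0.39 (vanabin1) to 0.89 (vanabin4), and vanabin4 passed the limma test only in the fits with 1 PS library (differences of 0.72 without PS replicate 1 and 1.06 without PS replicate 2). Summed over the 4, the level was 15210 and 12420 FPKM in PS, against 7801 and 9786 FPKM in SS and 11250 and 10620 FPKM in C.

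The complement gene c3-1 had 1973 and 1801 FPKM in PS, against 1719 and 1786 FPKM in SS, and the receptor gene c3ar had 914 and 803 FPKM in PS, against 650 and 679 FPKM in SS. Both had separate libraries, by a small gap in c3-1, and both were close to equal. Of all 26 blood and immune genes, 24 reached 10 FPKM and 21 were close to equal, beside 84.7% of all genes of at least 10 FPKM. Of the 26, 14 had separate libraries with PS higher and 6 with PS lower, beside 26.6% and 24.8% of all genes. The median difference was 0.16, and none was called, beside 1.26% of all genes.

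Signalling genes were mostly level, beside 84.7% close to equal among all genes of at least 10 FPKM. Of 16 Wnt genes 15 reached that level and 14 were close to equal, with a median difference of -0.03 and none called (1.26% of all genes were). The central transducer cibeta-catenin had 1073 and 1058 FPKM in PS, against 1002 and 1111 FPKM in SS, and the ligand wnt5 had 635 and 506 FPKM in PS, against 444 and 404 FPKM in SS. The libraries of cibeta-catenin overlapped and those of wnt5 were separate, with a difference of 0.42 ± 0.18 (SE, limma adjusted p = 0.368). Secreted Wnt antagonists varied in precision. The gene sfrp1/5 had 953 and 944 FPKM in PS, against 1061 and 1079 FPKM in SS, with the narrowest interval of the close-to-equal genes, from -0.37 to 0.02. The gene sfrp2 had 21.5 and 4.13 FPKM in PS, against 16.2 and 53.6 FPKM in SS, with overlapping libraries and an interval from -3.15 to 0.13.

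Genes of the TGF-beta and BMP pathways split both ways. Of the 22, 17 reached 10 FPKM and 12 were close to equal, beside 84.7% of all genes of at least 10 FPKM. The median difference was -0.01, and none was called, beside 1.26% of all genes. The ligand bmp2/4 had 36.2 and 37.1 FPKM in PS, against 21.96 and 25.6 FPKM in SS, and the secreted antagonist dan had 37.7 and 22.4 FPKM in PS, against 7.51 and 17.8 FPKM in SS. Both had separate libraries, with dan more spread in each sinus. The ligand tgfbeta-na2 had 8.30 and 6.57 FPKM in PS, against 15.8 and 18.8 FPKM in SS. The transducer smad1/5 had 254 and 239 FPKM in PS, against 229 and 261 FPKM in SS, and was level. Of 19 genes of the FGF, ephrin and receptor tyrosine kinase pathways 16 reached 10 FPKM, and these 16 were close to equal. Of the 19, 9 had separate libraries with PS higher and 0 with PS lower, beside 26.6% and 24.8% of all genes, and the median difference was 0.08. Of 13 Notch and Hedgehog genes 10 reached 10 FPKM and 8 were close to equal, with a median difference of -0.07 over the 13.

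The transcription factor families gave few differences besides those named. Of the 5 Sox genes soxh alone was called, where 0.504% of all genes were called lower in PS. The gene soxC had 304 and 313 FPKM in PS, against 196 and 212 FPKM in SS, with replicates so close that the difference of 0.59 ± 0.13 (SE) was a few times its error (limma adjusted p = 0.104). The gene soxF, whose vertebrate counterparts act in endothelium, had 178 and 183 FPKM in PS, against 155 and 129 FPKM in SS. Both were separate in the sinuses and within the margin. The adhesion gene ncam was like them, with 384 and 423 FPKM in PS, against 286 and 254 FPKM in SS (0.58 ± 0.13, SE, limma adjusted p = 0.114). Only members with a sinus mean of at least 10 FPKM could count as close to equal. Of 13 forkhead genes 7 reached it and all 7 were close to equal (median difference of the list 0.12). Of 19 other homeobox genes 13 reached it and 11 were close to equal (-0.07). Of 14 nuclear receptor genes 12 reached it, all close to equal (0.08). Of 6 Hox and ParaHox genes 5 reached it and 3 were close to equal (0.04). Of 16 glutathione peroxidase and redox genes 14 reached it, all close to equal (0.05). None of these 5 lists had a called member, beside 1.26% of all genes.

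Zinc finger genes were the largest families in the table. Of 74 C2H2 genes 64 reached 10 FPKM and 56 were close to equal, and the median difference was -0.07. Of the 74, zf(c2h2)-43 alone was called, where 1.26% of all genes were. Of 80 other zinc finger genes 79 reached 10 FPKM and 75 were close to equal, none was called, and the median difference was -0.08. Among these 80 genes 28 had separate libraries with PS lower and 9 with PS higher, beside 24.8% and 26.6% of all genes, but none of these differences reached 1 in size, the range being -0.65 to 0.53. Of the 21 neural genes 15 reached 10 FPKM and 8 were close to equal. Of the 21, 9 had separate libraries with PS higher and 2 with PS lower, beside 26.6% and 24.8% of all genes, and the median difference was 0.30. The called members were th and opsin3, both higher in PS, where 0.757% of all genes were called in that direction.

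Equality was tightest in abundant genes. The share of genes whose 90% interval lay within -1 to 1 was 12.2% of the 98 genes under 10 FPKM, 71.8% of the 333 genes from 10 to 100 FPKM, 96.1% of the 279 genes from 100 to 1000 FPKM, and 98.8% of the 83 genes of 1000 FPKM or more. The median half-width of the interval fell across these ranges from 0.90 and 0.51 to 0.28 in both upper ranges, so the low share under 10 FPKM goes with wide intervals. A median absolute difference of 0.51, 0.20, 0.14 and 0.18 was found in the same 4 ranges. No gene of 1000 FPKM or more differed by over 1, 4 genes from 100 to 1000 FPKM did, and all 10 called genes were under 100 FPKM. Of the 48 genes from 10 to 100 FPKM that differed by over 1, 15 were higher in PS and 33 were lower in PS.

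**Figure D5:**
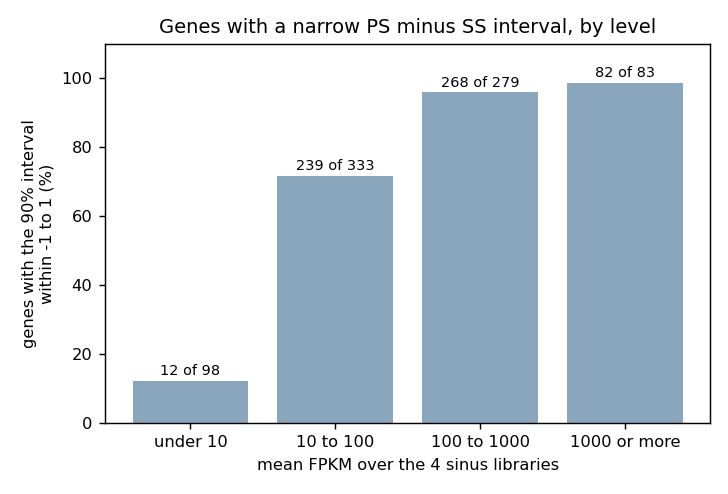
Share of genes whose 90% interval of PS minus SS lay within -1 to 1 on log2(FPKM + 1) (bars, vertical axis, percent) in 4 ranges of mean FPKM over the sinus libraries (horizontal axis), with the number of genes above each bar. The share is 12.2% in the lowest range and 98.8% in the highest.

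Of the 12 most abundant close-to-equal genes, 6 were actin and ribosomal protein genes, and the others were if-a, the collagen gene fcol1 and undescribed genes. Actin, listed as act, had 25136 and 23972 FPKM in PS, against 19772 and 22183 FPKM in SS. The ribosomal protein gene rl32 had 23611 and 22833 FPKM in PS, against 18065 and 22591 FPKM in SS, and the fibrillar collagen gene fcol1 had 15084 and 15387 FPKM in PS, against 10630 and 12260 FPKM in SS. SS replicate 1 was the lowest library in each. The ribosomal protein genes rs23, r27a, r35a and rps13 had the same low library, with differences between 0.14 (r27a) and 0.25 (r35a). The undescribed genes LOC100179388, LOC100185771 and LOC100177240 lay on the other side, with differences of -0.26, -0.36 and -0.43, and LOC445733 had 0.39.

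Among the genes with the narrowest intervals were signalling and cytoskeletal genes. The kinase gene erk1/2 had 602 and 584 FPKM in PS, against 594 and 583 FPKM in SS, and the hypoxia-inducible factor gene hif had 1640 and 1620 FPKM in PS, against 1583 and 1637 FPKM in SS. The actin capping gene capza had 1063 and 1098 FPKM in PS, against 1111 and 1072 FPKM in SS. In these 3 the libraries overlapped and the interval did not go past 0.22 on either side. The gene klf2, a flow-responsive factor of vertebrate endothelium, also had a narrow interval, but one off 0. It had 1742 and 1726 FPKM in PS, against 1457 and 1439 FPKM in SS, a difference of 0.26 ± 0.10 (SE) whose interval, 0.06 to 0.46, was inside the margin, and it was not called (limma adjusted p = 0.32). The phosphatase gene dusp8.16 (difference 0.22) and LOC100183593 (difference 0.32) also had intervals inside the margin and off 0, and were not called.

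Close to equal therefore did not mean identical. Of the 589 genes, 507 had an interval that held 0, 53 an interval above 0 and 29 an interval below 0. The 4 sinus libraries overlapped in 315 of the 589, and 102 had a difference under 0.05 in size. Of the 106 genes of at least 10 FPKM that were not close to equal, 24 had an interval above 0, 46 an interval below 0, and 36 an interval that held 0 and so were undecided. The genes just inside the margin were zf(c2h2)-101 (interval -0.99 to 0.21) and meta1 (-0.99 to 0.33), and those just outside were rcl2 (0.19 to 1.01) and zf(c2h2)-88 (-1.01 to 0.22).

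By the median gene, the distance between the sinuses was close to that between replicates. Over the 695 genes, the median absolute log2 difference was 0.186 to 0.241 in the 4 pairs of a PS with an SS library, against 0.145 between the PS replicates and 0.188 between the SS replicates. It was 0.236 to 0.285 between PS and C libraries and 0.257 to 0.343 between SS and C libraries. The number of genes over 1 apart was 31 to 65 between the sinuses, against 28 between the PS replicates and 38 between the SS replicates. It was 56 to 62 between PS and C libraries, 40 to 69 between SS and C libraries, and 7 between the C replicates. By this count the range between the sinuses overlapped those to the tube. The 90th percentile was 0.625 to 0.906 between the sinuses, against 0.852 to 0.940 between PS and C and 0.805 to 0.978 between SS and C. These distances are descriptions, since the authors had taken a shared factor out of the replicates.

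Of the genes close to equal in the sinuses, 8 had both sinuses over 1 away from the tube on the same side. Both sinuses were over 1 above C in 7, which were hox3, isl, lefty/antivin, ciha9d22, LOC494380, LOC494376 and LOC494399, and both were over 1 below C in if-a. The gene lefty/antivin, of the secreted Nodal antagonists, had 188 and 125 FPKM in PS, against 133 and 174 FPKM in SS and 53.5 and 59.0 FPKM in C. Its sinus libraries overlapped and the C libraries were well below them, with a difference between the sinuses of 0.01 ± 0.25 (SE).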

How the data were processed

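RNA of 6 libraries, 2 per heart part, was analysed from 1 deposited table of 793 genes. Per the labels and the study's methods, the authors trimmed reads with cutadapt, aligned them with STAR, counted them per gene with featureCounts of Subread and compared the parts with DESeq2 after RUVs had taken out 1 factor of unwanted variation. Its methods list tool versions under zebrafish and say that Ciona reads went through the same steps. The deposited columns headed as raw hold a score, whole-number values from which the authors had taken that factor out. A weighted sum of the replicate differences is close to 0 in each of the 179 genes of mean above 1000 (singular values 2.43, 1.79 and 0.0028), so no count model was used. FPKM, also as deposited, was derived by the authors from these scores. The authors' comparison columns, which hold log2 fold changes, a p-value and an adjusted p-value, were not used. Read depth is unknown. The scores summed to 1412759 to 1531216 in the sinus libraries and to 1838786 and 1950483 in C, and 782 to 787 genes were above 0 in each library.

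The difference, PS minus SS, came from a fit of log2(FPKM + 1) by limma (version 3.58.1, under R 4.3.3), with a pseudocount of 1, no filter on low values, the 3 groups in 1 model, a variance trend and a term for the removed factor, which left 2 residual and 4.02 prior degrees of freedom. The median standard error was 0.209. Calls had a Benjamini-Hochberg adjusted p under 0.05. Close to equal meant a 90% interval within -1 to 1 and a sinus mean of at least 10 FPKM. The fit was also run on simulated data, and the outcome is not given here. Named genes were those called, the 12 largest differences in each direction among genes not called with separate libraries and 10 FPKM in 1 sinus, the 12 most abundant and the 12 most precise close-to-equal genes, and members of the lists. Genes at the edge of the margin and genes apart from C were named after their values were seen. Members and lists were chosen with earlier results of these data known. None of the 793 symbols matched the RefSeq table at hand (0 matches), so no coordinates or sequences are printed, and reads shared between near-identical copies could not be checked. Alternatives changed the pseudocount, filter, term, trend, scaling, unit, margin and libraries.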

Additional observations from a re-analysis of the deposited data

How the results depend on the processing

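The 10 genes called between the sinuses kept their direction in every alternative in which they were tested. Their sinus libraries did not overlap, so leaving out 1 library could not turn that direction. The number of calls did not hold. It was 2 with a pseudocount of 0.1, 3 with genes under a mean of 5 FPKM left out (732 tested), 33 with no factor term, 17 on the adjusted scores and 0 by limma on the 4 sinus libraries with the term, where 103 genes had an unadjusted p under 0.05, and it ran from 0 to 58 when 1 library was left out. It was 8 with a pseudocount of 10, 15 with no trend, 11 on the 4 sinus libraries with no term and 10 after rescaling. Of the 58 calls without PS replicate 1, 34.5% were higher in PS, against 60% of the 10. The cause was not tested. The number of close-to-equal genes was 355 with a margin of 0.58, 553 with a 95% interval and 601 with no minimum level, and 492 to 589 when 1 library was left out. The difference of ipf1, -0.08 with all libraries, ran from -1.12 to 0.95 when 1 library was left out, being positive at 0.95 without PS replicate 2 and 0.23 without SS replicate 1. Whether the library numbers pair the samples could not be checked. Deviations of same-numbered libraries correlated at -0.35 between C and PS, -0.58 between C and SS and -0.54 between PS and SS, but the removed factor itself ties the replicate differences, with same-sign weights, so the check is void. No source states a pairing. A replicate block in place of the factor term gave 10 calls, the same genes, and 589 close-to-equal genes. With 2 libraries per part and depth unknown, genes under 10 FPKM limit what can be called equal.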
